A study of Mus musculus with 54 samples.

Results

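The genes described here are those with which macrophages sense bacterial lipopolysaccharide (LPS) and other microbial products: the Toll-like receptors Tlr1, Tlr2, Tlr3, Tlr4, Tlr7, Tlr9 and Tlr13, the LPS co-receptors Cd14 and Ly96, and the adaptor Myd88. The 10 genes were taken by symbol from 33280 gene symbols in bulk RNA-seq count tables of macrophages sorted from mouse brain. Levels without LPS, the response to LPS and the effect of an earlier depletion and repopulation of the macrophages were compared between cell types, with 54 libraries in 18 groups of 3. All 10 genes were tested in every comparison, and Tlr9 was the only one with no count in some library, in 1 of the 54.

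Toll-like receptors recognise conserved microbial molecules. Tlr4 binds LPS together with its partner Ly96 (MD-2), and Cd14 hands LPS to that complex. Tlr2 recognises bacterial lipopeptides, paired with Tlr1 or Tlr6, at the cell surface. In endosomes, Tlr3 senses double-stranded RNA, Tlr7 single-stranded RNA, Tlr13 bacterial ribosomal RNA and Tlr9 unmethylated CpG DNA, and these receptors need the chaperone Unc93b1 to get there. Apart from Tlr3, all of these receptors signal through Myd88, and NF-kB is a main transcription factor downstream. Brain macrophages are known for a strong response to systemic LPS, although little LPS itself crosses the blood-brain barrier.

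Microglia (MG), the macrophages of the brain tissue, and subdural CNS-associated macrophages (sdCAMs), those of the leptomeninges and perivascular spaces, were sorted from adult brains without choroid plexuses. Wild-type C57BL/6JCrl mice (WT) and Ccr2-/- mice, which lack a chemokine receptor that monocytes use to leave the bone marrow, each gave MG and sdCAMs in 3 conditions: untreated mice injected with PBS, mice given the vehicle of BLZ945 (CTL) and later LPS, and mice given BLZ945 and later LPS. BLZ945 inhibits the CSF1 receptor and depletes these macrophages, which then repopulate. Sorting took place 8 weeks after treatment and 12 h after the injection. The LPS comparison in WT and Ccr2-/- mice therefore set mice gavaged with vehicle against mice that were not gavaged. The remaining line, Ccr2CreERT2/CreERT2:R26tdT/tdT (reporter mice), was homozygous for a tamoxifen-inducible Cre at Ccr2 and for a tdTomato (tdT) reporter. All reporter mice had received BLZ945 and tamoxifen, then PBS or LPS, and gave MG, tdT+ sdCAMs (offspring of cells with active Ccr2 at the time of tamoxifen) and tdT- sdCAMs. The labels place WT and Ccr2-/- libraries in one batch and reporter libraries in another, so the reporter mice were compared only among themselves. The paper, however, describes a batch correction (ComBat-seq) of its WT and Ccr2-/- data and does not name the batches. No such correction was made here, and the part of batch in differences between these genotypes was not tested.

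Each library was made from picogram amounts of RNA, and totals ranged from 1705930 to 11330781 counts, lowest in WT sdCAMs (1705930 to 7699790) and reporter sdCAMs (2060240 to 9850283). The summed level of 6 sdCAM markers was at most 22.6 CPM (counts scaled to a fixed library total) in MG and at least 516 CPM in sdCAMs. Ccr2, the deleted gene, had 17.05 to 51.01 CPM in untreated WT sdCAMs and 2.33 to 5.204 CPM in untreated Ccr2-/- sdCAMs, but overlapped between genotypes in MG, where both were under 9 CPM. Libraries labelled Ccr2-/- after CTL and LPS had 3.05 to 5.47 CPM in sdCAMs, above the 0 to 0.755 CPM of WT, so there the label was not borne out by this gene. With Ccr2 that near the floor in WT after LPS, this gene could not serve as a check of the label there. In 6 of 9 WT sdCAM libraries (CTL and LPS, mice 1, 4 and 6, BLZ945 and LPS, mouse 12, and untreated mice 9 and 14) the labels carry a note, "IEG correction", without further explanation, and such libraries are termed marked. The column names of 2 libraries after LPS, mouse 1 tdT- and mouse 7 tdT+, carry each other's sequencing index. MG and tdT+ sdCAMs of mouse 1 contained the Y-linked Ddx3y (51.5 and 139.8 CPM) while its tdT- library had 507.9 CPM of Xist and no Ddx3y, and mouse 7 showed the mirror pattern, with Xist in MG and tdT- sdCAMs and Ddx3y (108.5 CPM) in tdT+ sdCAMs. Calls that rest on these libraries are given as deposited and with the 2 libraries exchanged or left out. The tdT+ library of mouse 5 after LPS held 6 microglial markers at a median of 83.3% of their level in MG of the same mouse, against 2.55 to 14.6% in the other reporter sdCAM libraries. Among reporter MG, those of mouse 175 (PBS) and mouse 1 (LPS) stood apart from the others. No test for this was made, and their omission was chosen after the data were seen. Values without them are given as a description and do not replace the main result. Levels below are CPM scaled by TMM over all 54 libraries, "passed" means an adjusted p under 0.05 (edgeR quasi-likelihood test, adjusted over all genes), and "rose", "fell", "higher" and "lower" are used for genes that passed. In sorted bulk samples, a change in the mix of cells and a change of RNA per cell cannot be told apart.

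Without LPS, MG and sdCAMs expressed nearly the whole set. Per kilobase of exon, Cd14 stood first in all 7 populations without LPS and lay above the next gene in every library. In untreated WT MG it reached 200.1 CPM per kilobase, followed by Tlr13 (98.3), Tlr7 (98.3) and Tlr2 (71.4). Tlr13 and Tlr7 overlapped there. In the run of Tlr4 (42.4), Ly96 (38.7), Tlr3 (33.1) and Myd88 (32.5) each gene overlapped the next, but Tlr4 and Ly96 lay above Myd88 in every library, whereas Tlr1 (17) and Tlr9 (1.53) each lay below the gene before them in every library. In Ccr2-/- sdCAMs the order was Cd14 (304.9 CPM per kilobase), Tlr2 (129), Ly96 (125), Tlr13 (97.2), Tlr7 (91.5), Tlr4 (69.7), Myd88 (31.8), Tlr1 (28.3), Tlr3 (7.95) and Tlr9 (0.567), with overlap between Tlr2 and Ly96, between Tlr13 and Tlr7 and between Myd88 and Tlr1. Tlr9 was last in all populations but WT sdCAMs, where Tlr3 was last (8.81) and Tlr9 seventh (19.4).

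**Figure D1:**
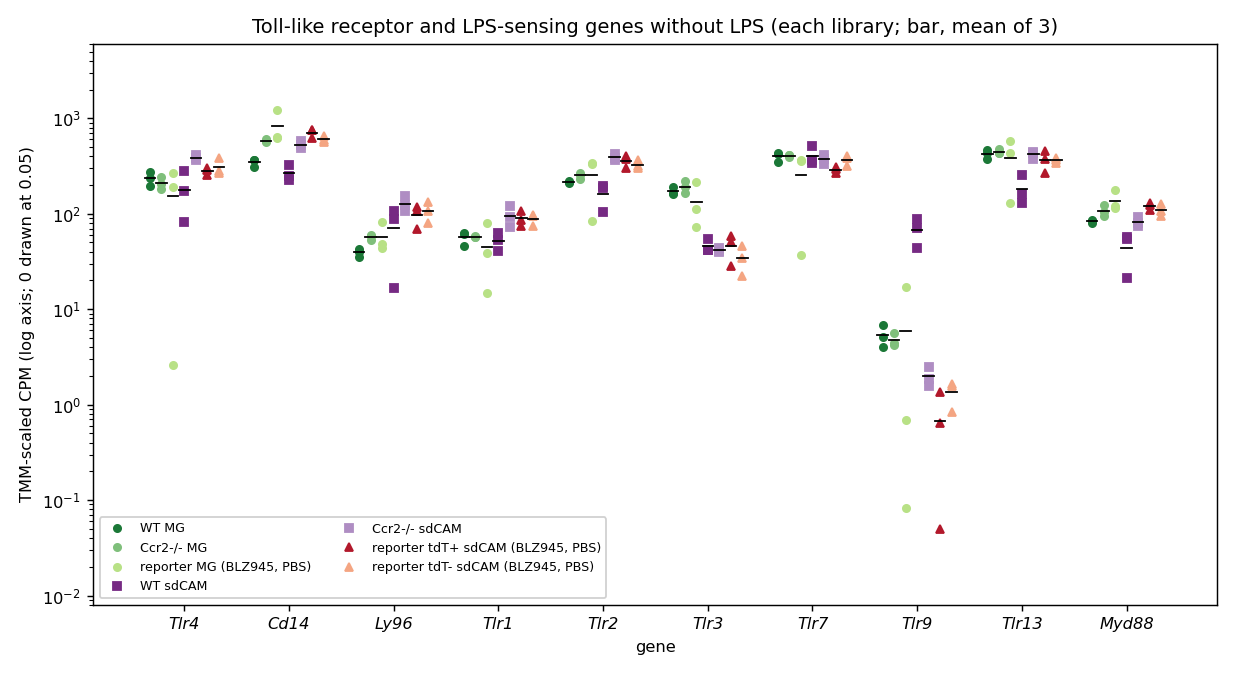
Level of each gene without LPS (y axis, TMM-scaled CPM on a log axis, with 0 drawn at 0.05) in 7 populations, with 1 point per library and a bar at the mean of 3. In each sdCAM population the points for Tlr3 lie below those of WT and Ccr2-/- MG. Those for Tlr9 in WT sdCAMs lie far above those in other sdCAMs, and reporter MG of mouse 175 fall below the other MG for Tlr4, Tlr7 and Tlr13.

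The RNA sensor Tlr3 was lower in sdCAMs than in MG of WT and Ccr2-/- mice. In reporter mice the cell types did not overlap, but the difference did not pass. It had 165, 161 and 190.4 CPM in untreated WT MG and 41.7, 53.99 and 42.03 CPM in WT sdCAMs, without overlap, and was 3.7-fold lower in sdCAMs (log2 fold change -1.89, SE 0.369, adjusted p = 0.00242). In Ccr2-/- mice the levels were 191, 219.9 and 167 CPM in MG and 40.5, 39.7 and 44.1 CPM in sdCAMs, 4.67-fold lower (log2 fold change -2.22, SE 0.281, adjusted p = 6.99e-06). In reporter mice after PBS, tdT+ sdCAMs had 58.5, 28.5 and 49.98 CPM, tdT- sdCAMs 22.2, 33.99 and 46.4 CPM and MG 214, 73.1 and 113 CPM, again without overlap, although neither difference passed (adjusted p = 0.119 and 0.0594). Without the 2 MG libraries that stood apart, the differences were log2 fold change -1.86, adjusted p = 0.0255 for tdT+ and log2 fold change -2.27, adjusted p = 0.00881 for tdT- sdCAMs. The omission, chosen after the data were seen, took out MG of mouse 175 (73.1 CPM), the lowest after PBS. It thereby widened the gap, so these values do not make up for the missed calls. The WT difference did not pass once the IEG mark was a covariate (log2 fold change -1.37, adjusted p = 0.0718). Exons of Tlr3 overlap those of a predicted gene on the other strand, and the counting is not known to use strand, so reads of that gene may be included.

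The LPS receptor complex was richer in sdCAMs than in MG of Ccr2-/- mice. Tlr4 had 181, 244 and 207 CPM in Ccr2-/- MG and 387, 363 and 411 CPM in Ccr2-/- sdCAMs, all of the latter above all of the former (1.83-fold, log2 fold change 0.87, SE 0.227, adjusted p = 0.00846). Ly96 had 52.5, 58.7 and 59.8 CPM in MG and 122, 153 and 108 CPM in sdCAMs, also without overlap (2.23-fold higher in sdCAMs, log2 fold change 1.16, SE 0.218, adjusted p = 0.000574). Tlr2 was 1.54-fold higher in sdCAMs (log2 fold change 0.62, SE 0.209, adjusted p = 0.0381), a call that ended with the mouse as a block (adjusted p = 0.0739) and without any 1 of the 6 libraries (adjusted p 0.0536 to 0.127). The Tlr4 call ended without the MG library of mouse 1m (adjusted p = 0.0522). Cd14, by contrast, had 604, 581 and 560.0 CPM in MG and 483, 525 and 576 CPM in sdCAMs, which overlapped (95% interval of the log2 difference -0.63 to 0.34). In all, 4 of the 10 genes passed between sdCAMs and MG of Ccr2-/- mice (3 higher and 1 lower in sdCAMs), beside 22.4% of all genes tested, with a median log2 difference of -0.11 over the 10 and 0 over all genes.

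In WT mice 3 of the 10 genes passed between sdCAMs and MG, 1 higher and 2 lower in sdCAMs, beside 17.4% of all genes (median log2 difference -0.38 over the 10 and 0.03 over all). Whether the cell types differed unequally in the WT and Ccr2-/- mice was not tested. Tlr4 spread from 82.2 to 278 CPM in WT sdCAMs and overlapped MG at 195 to 273 CPM (log2 difference -0.41, 95% interval -1.28 to 0.47). The 6 microglial markers stood in the same order as Tlr4 there, at 20.3, 23.6 and 37.85% of their MG level in untreated mice 9, 14 and 15, where Tlr4 had 82.2, 174 and 278 CPM. They lay at 10.35 to 18.4% in WT sdCAMs after CTL and LPS, 25.15 to 25.95% after BLZ945 and LPS and 6.92 to 13.5% in Ccr2-/- sdCAMs, and their part in the WT sdCAM comparisons was not tested. Ly96 had 88.004, 106 and 16.6 CPM in WT sdCAMs, with the marked libraries of mice 9 and 14 above and the unmarked one of mouse 15 below the MG at 35.6 to 43.04 CPM. Its log2 difference of 0.87 (adjusted p = 0.52) turned to -2.004 with the IEG mark as a covariate (adjusted p = 0.00829). Tlr13 had 462, 378 and 430.0 CPM in MG and 160.4, 130.3 and 257 CPM in sdCAMs, 2.32-fold lower (log2 fold change -1.21, SE 0.33, adjusted p = 0.0185). That call ended with the IEG mark as a covariate and without a low-count filter, and without the sdCAM or the MG library of mouse 9, the sdCAM library of mouse 14 or the MG library of mouse 15 (adjusted p 0.0614 to 0.0721). In Ccr2-/- mice Tlr13 overlapped between the cell types (432 to 476 CPM in MG and 377 to 447 CPM in sdCAMs).

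Reporter mice gave no call between sdCAMs and MG after PBS. For tdT+ sdCAMs 0 of the 10 genes passed, beside 8.53% of all genes, and 0 by DESeq2. At an unadjusted p under 0.05 in edgeR there were 3 of the 10, beside 3079 of all 13309 genes tested. For tdT- sdCAMs 0 passed, beside 6.38%, and 1 by DESeq2. Shares of all genes are those of edgeR. Counts by DESeq2, here and below, have no such share beside them, so nothing particular to the 10 genes is read from them. At an unadjusted p under 0.05 there were 2 of the 10, beside 2669 of all 13309 genes. Tlr4 lay at 301, 256 and 289 CPM in tdT+ and 270.0, 379 and 278 CPM in tdT- sdCAMs, while reporter MG of mice 174, 175 and 177 had 189, 2.58 and 267 CPM, so that mouse 175 alone set the MG spread. That library detected 10815 genes.

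Between the genotypes without LPS, 3 of the 10 genes passed in sdCAMs and 1 in MG. Cd14 had 251, 227 and 327 CPM in WT and 483, 525 and 576 CPM in Ccr2-/- sdCAMs, 2.02-fold higher in the latter (log2 fold change 1.01, SE 0.317, adjusted p = 0.0498). Tlr2 had 105, 186 and 195 CPM in WT and 424, 381 and 363 CPM in Ccr2-/- sdCAMs, 2.47-fold higher (log2 fold change 1.30, SE 0.368, adjusted p = 0.0329). Neither pair of groups overlapped, yet both calls ended without the WT libraries of mice 9 or 14 or any 1 Ccr2-/- library (adjusted p 0.101 to 0.157 for Cd14 and 0.061 to 0.109 for Tlr2). The Cd14 call also ended under 4 of 6 other settings of the fit. Together with Tlr9 (below), 2 genes were higher and 1 was lower in Ccr2-/- sdCAMs, beside 9.6% of all genes. Lars2, a row known to collect ribosomal RNA reads in mouse count tables, took 1.22 to 6.2% of counts in the WT and 0.0156 to 0.0181% in the Ccr2-/- libraries, and ribosomal protein genes took 0.774 to 4.41% and 0.599 to 0.7%. The part of these shares, and of the microglial markers above, in the genotype differences was not tested. In MG, only Ly96 passed, beside 17.5% of all genes. It had 39.8, 43.04 and 35.6 CPM in WT and 52.5, 58.7 and 59.8 CPM in Ccr2-/- MG (log2 fold change 0.51, SE 0.157, adjusted p = 0.0305), and the call ended without any 1 of the 6 libraries (adjusted p 0.0561 to 0.164).

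After LPS the 10 genes moved in both directions. As a check of the stimulus, Nfkbia, an early NF-kB target, rose in all 7 populations, by 1.97 to 3.94 on the log2 scale. In WT MG 9 of the 10 genes passed, 6 higher and 3 lower, beside 30.9% of all genes, with a median log2 change of 0.58 over the 10 and 0.02 over all genes. In Ccr2-/- MG 8 passed, 6 higher and 2 lower, beside 34.9% (medians 0.73 and 0.00). In Ccr2-/- sdCAMs 4 passed, 3 higher and 1 lower, beside 28.8% (medians 0.56 and -0.05). In WT sdCAMs 1 passed and was lower, beside 6.32% (medians 0.45 and -0.08). The biological coefficient of variation was 0.7 in WT sdCAMs against 0.257 in WT MG and 0.453 in Ccr2-/- sdCAMs. In reporter mice 3 of the 10 passed in tdT+ sdCAMs (1 higher, 2 lower, beside 13.6%) and 2 in tdT- sdCAMs (both lower, beside 27.1%). In reporter MG 0 passed, beside 1.08% of all genes in edgeR. DESeq2 called 3, and its share of all genes is not given. At an unadjusted p under 0.05 in edgeR there were 3 of the 10, beside 1510 of all 10882 genes tested.

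**Figure D2:**
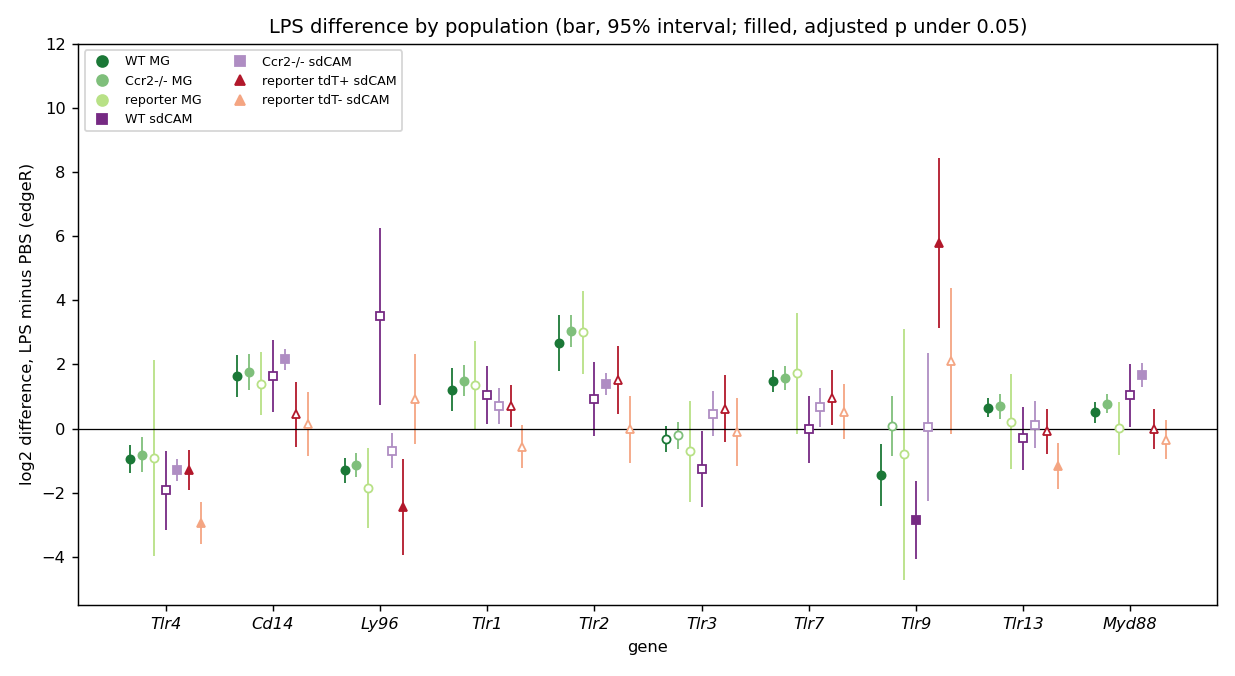
Log2 difference between LPS and PBS for each gene (y axis, edgeR, with 95% intervals) in 7 populations, filled where the adjusted p was under 0.05. All 7 estimates for Tlr4 lie below 0 and all 7 for Cd14 above 0, while those for Ly96 and Tlr9 lie on both sides.

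Tlr4 fell in 5 of 7 populations and had an estimate below 0 in the other 2. In WT MG it went from 195, 239 and 273 CPM to 103, 153 and 109 CPM, without overlap (1.93-fold lower, log2 fold change -0.95, SE 0.196, adjusted p = 0.00367). In Ccr2-/- MG it went from 181, 244 and 207 CPM to 109.7, 141 and 102 CPM (log2 fold change -0.82, SE 0.256, adjusted p = 0.0228), a call that ended without the untreated library of mouse 3m or 5f or the LPS library of mouse V1m or V4f (adjusted p 0.0552 to 0.0944). Tlr4 of Ccr2-/- sdCAMs went from 387, 363 and 411 CPM to 174, 136 and 162 CPM (2.47-fold lower, log2 fold change -1.30, SE 0.155, adjusted p = 4.67e-05), and the responses of these sdCAMs and MG did not pass a test of their difference (interaction -0.45, 95% interval -1.12 to 0.23, adjusted p = 0.487). In tdT- sdCAMs Tlr4 went from 270.0, 379 and 278 CPM to 40.5, 46.4 and 33.8 CPM, 7.69-fold lower (log2 fold change -2.94, SE 0.307, adjusted p = 8.64e-06), the largest fall of Tlr4 over the 7 populations as deposited. In the same tdT- libraries ribosomal protein genes took 0.59 to 0.95% of counts after PBS and 1.83 to 3.51% after LPS, and the summed level of 5 neutrophil markers was 0 to 4.32 CPM and 598 to 2359 CPM. Ly6g and Retnlg, which are among these markers, had no counts in any of these libraries. In the same libraries 4 monocyte markers, Ccr2 among them, summed to 142 to 287 CPM after PBS and 9.34 to 79.1 CPM after LPS. The part of ribosomal protein counts, neutrophil markers or monocyte markers in the fall, or in other LPS changes of tdT- sdCAMs, was not tested. In tdT+ sdCAMs Tlr4 went from 301, 256 and 289 CPM to 89.5, 122 and 132 CPM (2.46-fold lower, log2 fold change -1.30, SE 0.288, adjusted p = 0.00789). These tdT+ libraries had totals of 8652557 to 9290262 counts after PBS and 2060240 to 5467630 after LPS. Lars2 took 0.0108 to 0.0159% of their counts after PBS and 1.45 to 7.24% after LPS. The 4 monocyte markers summed to 230 to 286 CPM in them after PBS and 9.86 to 27.4 CPM after LPS. The part of depth, the Lars2 share or monocyte markers in the LPS changes of tdT+ sdCAMs, for Tlr4 and the other genes, was not tested. With the 2 libraries exchanged the changes were log2 fold change -2.13, adjusted p = 0.0204 in tdT- and log2 fold change -1.75, adjusted p = 0.0559 in tdT+ sdCAMs, and with tdT+ mouse 5 also left out they were -2.15 and -2.16. WT sdCAMs went from 82.2, 174 and 278 CPM to 38.5, 54.8 and 33.8 CPM, which did not overlap, but the change missed the threshold (log2 fold change -1.93, SE 0.565, adjusted p = 0.0649), and reporter MG spread from 2.58 to 267 CPM after PBS and 12.2 to 135 CPM after LPS.

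Cd14, the co-receptor that presents LPS, moved the other way. It went from 309, 361 and 369.7 CPM to 1727, 559 and 933 CPM in WT MG (3.1-fold higher, log2 fold change 1.63, SE 0.303, adjusted p = 0.00196) and from 604, 581 and 560.0 CPM to 2470.1, 1441 and 1937 CPM in Ccr2-/- MG (3.4-fold, log2 fold change 1.76, SE 0.255, adjusted p = 0.00012). Every LPS library lay above every PBS library in both. In Ccr2-/- sdCAMs it went from 483, 525 and 576 CPM to 2263, 2675 and 2146 CPM, its largest rise (4.47-fold, log2 fold change 2.16, SE 0.149, adjusted p = 4.75e-07). WT sdCAMs had 251, 227 and 327 CPM after PBS and 693, 657 and 898 CPM after LPS, without overlap but short of the threshold (log2 fold change 1.63, SE 0.512, adjusted p = 0.0794). With the IEG mark as a covariate, WT sdCAMs passed (log2 fold change 1.80, adjusted p = 0.017). In reporter sdCAMs Cd14 overlapped between PBS and LPS, with 755, 753 and 619 against 434, 1893 and 559.9 CPM in tdT+ and 564, 655 and 590.1 against 453, 1038 and 521 CPM in tdT- cells, in both of which mouse 5 was the highest after LPS. Reporter MG of LPS mice 1, 5 and 7 had 2839, 2152 and 1814 CPM, all above the 626, 1214 and 638 CPM of PBS mice (adjusted p = 0.162, and 0.00428 without the 2 libraries that stood apart).

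Ly96, the subunit of the complex that holds LPS, fell in MG of WT and Ccr2-/- mice. It went from 39.8, 43.04 and 35.6 CPM to 14.4, 16.3 and 16.9 CPM in WT (2.47-fold lower, log2 fold change -1.31, SE 0.18, adjusted p = 0.000296) and from 52.5, 58.7 and 59.8 CPM to 24.6, 24.3 and 27.01 CPM in Ccr2-/- MG (2.22-fold lower, log2 fold change -1.15, SE 0.174, adjusted p = 0.000167). Reporter MG had 48.04, 81.1 and 43.8 CPM after PBS and 10.4, 22.01 and 16.9 CPM after LPS, without overlap or call (adjusted p = 0.145). Ccr2-/- sdCAMs had 122, 153 and 108 CPM after PBS and 89.4, 82.5 and 65.4 CPM after LPS, with no overlap but no call (log2 fold change -0.69, SE 0.254, adjusted p = 0.0598). WT sdCAMs lay on the other side, with 88.004, 106 and 16.6 CPM after PBS and 529, 1159 and 548 CPM after LPS (log2 fold change 3.50, SE 1.26, adjusted p = 0.112). All 3 of these LPS libraries were marked. Ribosomal protein genes took 2.69 to 2.91% of counts in them, 4.41 and 3.3% in the marked libraries of untreated mice 9 and 14, and 0.774% in the unmarked library of untreated mouse 15. After BLZ945 and LPS, the marked library of mouse 12 had 690.2 CPM of Ly96 and 3.72% ribosomal protein counts, and the unmarked libraries of mice 8 and 11 had 36.7 and 19.8 CPM with 0.993 and 0.831%. Among untreated WT mice, and among those given BLZ945 and LPS, the marked libraries thus lay above the unmarked ones in both values, but the marked untreated libraries had a higher ribosomal protein share and less Ly96 than the CTL and LPS libraries. In tdT- sdCAMs after LPS, mice 1 and 7 had 3.51 and 3.07% ribosomal protein counts with 56.3 and 56.5 CPM of Ly96, and mouse 5 had 1.83% with 492 CPM. Among marked libraries alone the change was log2 fold change 3.00, adjusted p = 0.0034.

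Transcripts of neutrophil markers were present in WT and tdT- sdCAMs after LPS. Among WT sdCAM libraries after LPS, those of mice 8 and 11 were lowest both in these markers and in Ly96. The summed level of 5 neutrophil markers was 3281, 360.0 and 643 CPM in WT sdCAMs of mice 1, 4 and 6 after CTL and LPS, where mouse 4, the lowest of the 3 in these markers, was the highest in Ly96. It was 55.1 and 55.2 CPM in mice 8 and 11 and 999 CPM in mouse 12 after BLZ945 and LPS, where mouse 12 was also the highest in Ly96, and 0 to 94.2 CPM after PBS. In tdT- sdCAMs of LPS mice 1, 5 and 7 it was 2359, 598 and 1088.3 CPM, lowest in mouse 5, the highest in Ly96. It was 77.4 to 123 CPM in Ccr2-/- sdCAMs after CTL and LPS and 16.3 to 71.1 CPM in tdT+ sdCAMs after LPS. The defining neutrophil genes Ly6g and Retnlg had no counts in any WT or reporter sdCAM library. What part the mark, the ribosomal protein share or neutrophil RNA has in the Ly96 levels was not tested. In reporter mice Ly96 fell in tdT+ sdCAMs, from 117, 107 and 68.6 CPM to 21.7, 23.2 and 8.63 CPM (log2 fold change -2.44, SE 0.703, adjusted p = 0.0313), a call lost with the 2 libraries exchanged (adjusted p = 0.314) and without the LPS library of mouse 1 or 7 or the PBS library of mouse 174 or 175 (adjusted p 0.0626 to 0.122). In tdT- sdCAMs it had 134, 106 and 80.3 CPM after PBS and 56.3, 492 and 56.5 CPM after LPS, with mouse 5 far above the rest.

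**Figure D3:**
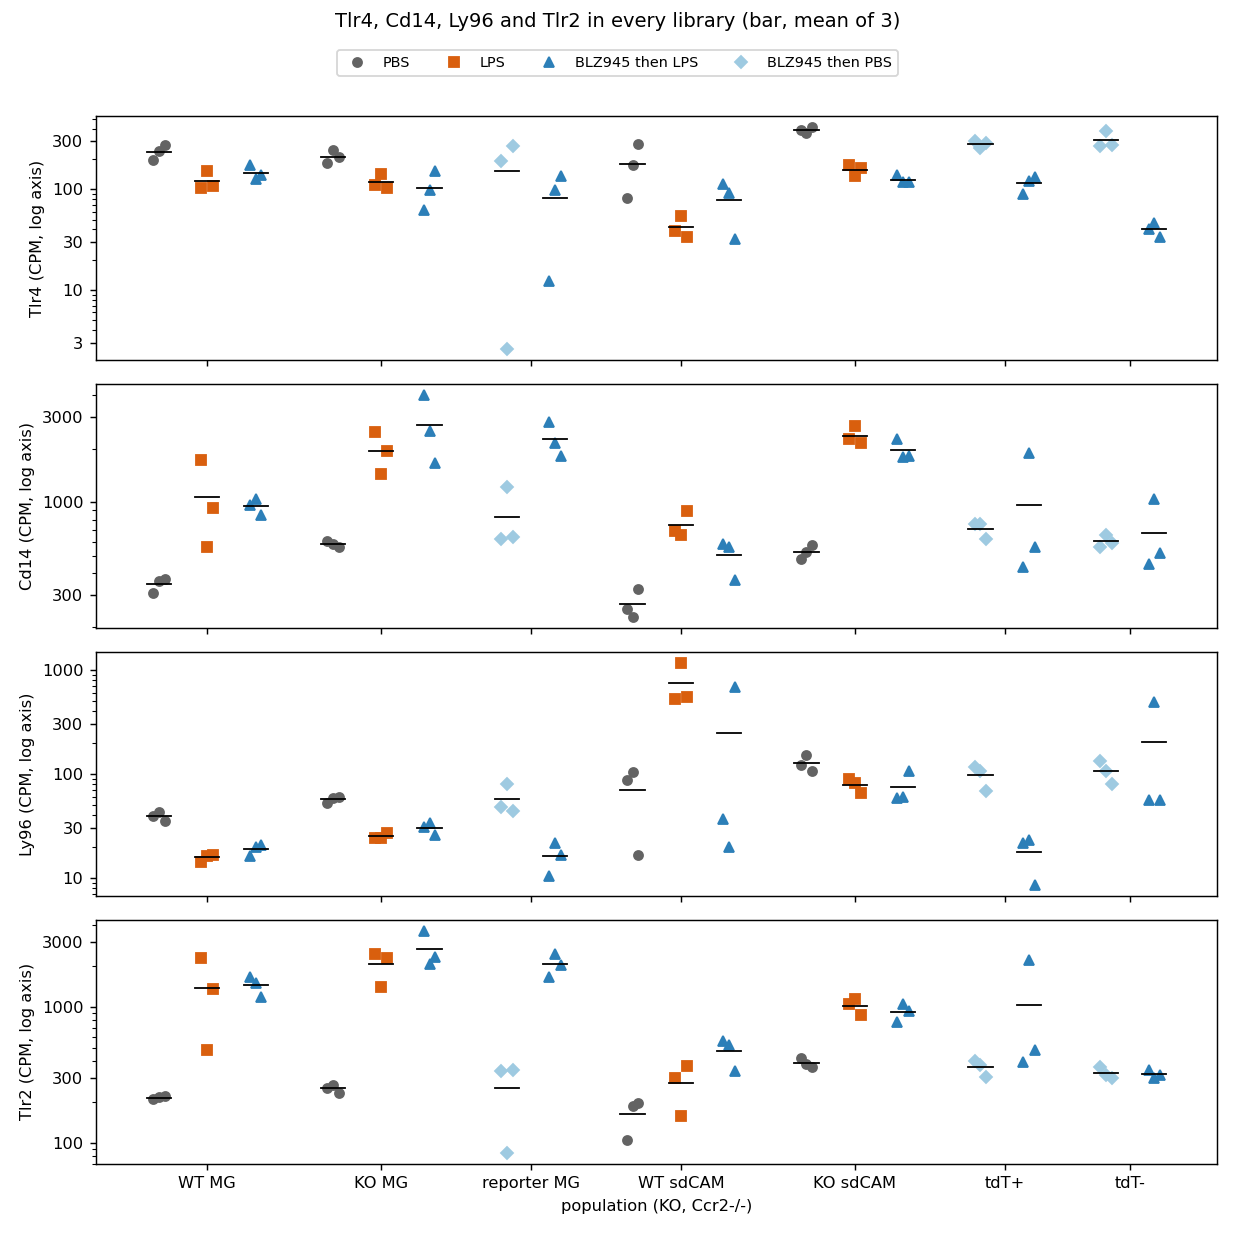
Levels of Tlr4, Cd14, Ly96 and Tlr2 (y axes, TMM-scaled CPM on log axes) in every library of each population and treatment, with a bar at the mean of 3. Tlr4 lies lower and Cd14 and Tlr2 higher after LPS than after PBS in MG of WT and Ccr2-/- mice, and Ly96 of WT sdCAMs after BLZ945 and LPS splits into 1 library at 690.2 CPM and 2 at 36.7 and 19.8 CPM.

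The promoters of Tlr2 and Myd88 are shown because both genes rose after LPS in MG of WT and Ccr2-/- mice and in Ccr2-/- sdCAMs, and because NF-kB and interferon signalling are the main pathways that LPS sets off. RefSeq promoters (GRCm38.p6, 250 bases before to 50 after the start of transcription) were matched for 6 of the 10 genes. Capitals mark matches, on either strand, to a kappaB-type motif (3 G, any 5 bases and 2 C) in Tlr2, chr3:83841559-83841858, minus strand, and to an interferon-response-type motif (GAAA, any 2 bases and GAAA) in Myd88, chr9:119339969-119340268, minus strand:
Tlr2: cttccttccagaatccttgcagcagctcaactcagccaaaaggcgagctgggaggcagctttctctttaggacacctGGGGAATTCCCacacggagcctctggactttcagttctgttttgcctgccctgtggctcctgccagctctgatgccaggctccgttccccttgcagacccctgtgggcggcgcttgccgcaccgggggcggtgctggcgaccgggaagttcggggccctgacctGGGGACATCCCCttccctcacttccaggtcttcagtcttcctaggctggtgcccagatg
Myd88: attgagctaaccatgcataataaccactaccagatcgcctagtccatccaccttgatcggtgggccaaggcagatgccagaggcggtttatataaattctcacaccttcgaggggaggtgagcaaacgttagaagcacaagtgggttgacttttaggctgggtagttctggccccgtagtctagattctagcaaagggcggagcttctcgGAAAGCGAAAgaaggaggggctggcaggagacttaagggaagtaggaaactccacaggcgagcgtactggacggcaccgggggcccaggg
In Tlr2 the capitals cover 2 runs of overlapping matches, one of which starts with GGGGAATTCC at bases 78 to 87 and the other with GGGGACATCC at bases 242 to 251. In Myd88 they cover GAAAGCGAAA at bases 211 to 220. The first motif occurs in 50.8% and the second in 3.44% of 32851 mouse promoters of the same length. Of the other promoters matched, that of Tlr3, which did not pass after LPS in any population, held 3 matches to the first motif, and those of Tlr1 and Tlr13, which rose in MG of WT and Ccr2-/- mice, and of Tlr9 held none to either. The matches describe these letters, not binding.

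Tlr2 had the largest log2 fold change after LPS among the 10 genes in MG of WT and Ccr2-/- mice. It went from 209, 217 and 219.5 CPM to 2277, 481 and 1353 CPM in WT (6.38-fold, log2 fold change 2.67, SE 0.403, adjusted p = 0.000535) and from 254, 267 and 234 CPM to 2462, 1409 and 2284 CPM in Ccr2-/- MG (8.27-fold, log2 fold change 3.05, SE 0.231, adjusted p = 4.51e-07). Mouse 4 responded least among WT MG, but still lay above all untreated libraries. In Ccr2-/- sdCAMs the rise was smaller, from 424, 381 and 363 CPM to 1052, 1137 and 867 CPM (2.62-fold, log2 fold change 1.39, SE 0.161, adjusted p = 3.61e-05). The response of Ccr2-/- sdCAMs differed from that of Ccr2-/- MG (interaction -1.63, SE 0.296, adjusted p = 0.00134). WT sdCAMs had 105, 186 and 195 CPM after PBS and 301, 158 and 369 CPM after LPS, with overlap (adjusted p = 0.302). Reporter MG of PBS mice had 335, 84.5 and 343 CPM and those of LPS mice 1660.5, 2450.2 and 2046 CPM, without overlap (log2 fold change 3.00, SE 0.554, adjusted p = 0.0575), and passed without the 2 libraries that stood apart (log2 fold change 2.75, adjusted p = 0.0015). In tdT- sdCAMs Tlr2 lay at 300.5 to 362 CPM after PBS and 301 to 345 CPM after LPS (95% interval of the log2 change -1.07 to 1.01). In tdT+ sdCAMs LPS mice 1, 5 and 7 had 393, 2209 and 482 CPM against 304 to 400.1 CPM after PBS, so that only mouse 5, with its microglial transcripts, lay outside the PBS range by a wide margin.

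Tlr1, which pairs with Tlr2, rose in MG of WT and Ccr2-/- mice as well. It went from 61.7, 46.1 and 62.8 CPM to 193, 65.01 and 137 CPM in WT (log2 fold change 1.22, SE 0.308, adjusted p = 0.011), with mouse 4 again the lowest after LPS, a call that ended without the untreated library of mouse 14 (adjusted p = 0.0512). In Ccr2-/- MG it went from 58.7, 56.7 and 57.2 CPM to 164, 108 and 205 CPM (2.81-fold, log2 fold change 1.49, SE 0.222, adjusted p = 0.000154). Reporter MG had 39.2, 14.9 and 79.3 CPM after PBS and 90.3, 127.4 and 127.6 CPM after LPS, without overlap or call (adjusted p = 0.37). In Ccr2-/- sdCAMs it had 73.2 to 119.5 CPM after PBS and 141 to 182 CPM after LPS, without overlap (adjusted p = 0.056), and in WT sdCAMs 40.9 to 62.2 and 65.3 to 116 CPM (adjusted p = 0.141).

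Of the endosomal receptors, Tlr7 and Tlr13 rose in MG of WT and Ccr2-/- mice and Tlr3 did not pass in any population. Tlr7 went from 347, 425 and 432 CPM to 1238, 1014 and 1079.6 CPM in WT MG (2.78-fold, log2 fold change 1.48, SE 0.155, adjusted p = 4.24e-05) and from 408, 394 and 414 CPM to 1048, 1322 and 1203 CPM in Ccr2-/- MG (2.98-fold, log2 fold change 1.58, SE 0.176, adjusted p = 1.27e-05). The LPS libraries lay far above the untreated ones in both. Reporter MG overlapped, with 367, 37.4 and 354 CPM after PBS and 353.5, 957 and 1209 CPM after LPS (log2 fold change 1.72, SE 0.813, adjusted p = 0.415). In sdCAMs Tlr7 did not pass, with 366, 344 and 511 CPM after PBS and 465, 339 and 286 CPM after LPS in WT (95% interval of the log2 change -1.07 to 1.02) and 375, 330.2 and 415 and 544, 675 and 553 CPM in Ccr2-/- cells (log2 fold change 0.66, SE 0.277, adjusted p = 0.0949). Tlr13 rose less, from 462, 378 and 430.0 CPM to 682, 641 and 663 CPM in WT (log2 fold change 0.65, SE 0.141, adjusted p = 0.00473) and from 476, 434 and 432 CPM to 629, 728 and 772 CPM in Ccr2-/- MG (log2 fold change 0.69, SE 0.183, adjusted p = 0.00986). In reporter MG it had 429, 129 and 582.4 CPM after PBS and 173, 504 and 653 CPM after LPS (log2 fold change 0.21, SE 0.637, adjusted p = 0.946), and without the 2 libraries that stood apart the change was 0.22 (adjusted p = 0.57). In tdT- sdCAMs it fell, from 363, 382 and 343 CPM to 191, 156 and 142 CPM (2.23-fold lower, log2 fold change -1.16, SE 0.339, adjusted p = 0.0191), a call lost with the 2 libraries exchanged (adjusted p = 0.168) and without LPS mouse 7 or PBS mouse 175 (adjusted p 0.0531 to 0.0538). Tlr3 lay at 161 to 190.4 CPM in untreated WT MG and 102 to 163 CPM after LPS, and its estimates ranged from -1.27 to 0.62 on the log2 scale over the 7 populations.

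Myd88 rose in MG of WT and Ccr2-/- mice and in Ccr2-/- sdCAMs. It went from 73.7, 91.8 and 80.2 CPM to 250.3, 251 and 281 CPM in Ccr2-/- sdCAMs (3.18-fold, log2 fold change 1.67, SE 0.166, adjusted p = 1.03e-05) and from 95.2, 105 and 124 CPM to 190.1, 167 and 189 CPM in Ccr2-/- MG (1.71-fold, log2 fold change 0.77, SE 0.139, adjusted p = 0.000659), and the responses differed between these cell types (interaction 0.93, SE 0.205, adjusted p = 0.0068). Thus 2 of the 10 genes, Tlr2 and Myd88, had responses that differed between Ccr2-/- sdCAMs and MG, in opposite directions, beside 8.14% of all genes. In WT MG Myd88 went from 86.1, 80.4 and 84.7 CPM to 130.4, 104 and 119.7 CPM (log2 fold change 0.50, SE 0.157, adjusted p = 0.029), a call lost without LPS mouse 1 or 6 or any 1 untreated library (adjusted p 0.0654 to 0.0948). In WT sdCAMs it had 21.4, 56.4 and 53.8 and 60.4, 99.04 and 84.5 CPM, which did not overlap (adjusted p = 0.183). It did not pass in any reporter population, with a log2 fold change of 0.0054 in MG (95% interval -0.82 to 0.83), -0.02 in tdT+ (-0.63 to 0.60) and -0.34 in tdT- sdCAMs (-0.96 to 0.27). Exons of Myd88 and Acaa1a overlap on opposite strands, so some reads may belong to Acaa1a. For WT, 0 of the 10 genes passed between the responses of sdCAMs and MG, beside 1.32% of all genes in edgeR. DESeq2 called 1, and its share of all genes is not given. At an unadjusted p under 0.05 in edgeR there were 5 of the 10, beside 2344 of all 13136 genes tested. With the mouse as a block, Ly96 passed there (interaction 4.99, adjusted p = 0.0469), as did Tlr7 in Ccr2-/- mice (-0.88, adjusted p = 0.0441).

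Tlr9, the CpG DNA sensor, ranged from 0 to 87.1 CPM over the 54 libraries. Untreated WT sdCAMs had 71.3, 44.2 and 87.1 CPM, against 5.099, 6.82 and 4.04 CPM in WT MG (12.7-fold, log2 fold change 3.67, SE 0.495, adjusted p = 9.34e-05) and 1.57, 1.86 and 2.49 CPM in Ccr2-/- sdCAMs (33-fold lower than WT, log2 fold change -5.04, SE 0.848, adjusted p = 0.00212). After LPS it fell in WT sdCAMs to 6.795, 9.32 and 9.21 CPM (log2 fold change -2.85, SE 0.559, adjusted p = 0.017), a call lost without untreated mouse 9 or 15 or any 1 of the LPS mice (adjusted p 0.0504 to 0.0722). In WT MG it fell to 1.57, 2.24 and 1.97 CPM (log2 fold change -1.45, SE 0.446, adjusted p = 0.0272), with 19 to 25 counts per library, a call lost without LPS mouse 1 or 6 or untreated mouse 9 or 14 (adjusted p 0.0533 to 0.106). In tdT+ sdCAMs it rose from 0.648, 1.35 and 0 CPM (0 to 12 counts) to 44.1, 15.9 and 53.3 CPM (log2 fold change 5.79, SE 1.25, adjusted p = 0.00654, and 5.19 to 6.78 without PBS mouse 177 or 175), and this held with the 2 libraries exchanged (log2 fold change 5.09, adjusted p = 0.0458).

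The 7 sdCAM libraries highest in Tlr9 (32.3 to 87.1 CPM) had 1.22 to 7.24% of their counts on Lars2, which was looked at after the Tlr9 values were seen. Lars2 took 1.22, 2.09 and 6.2% of counts in untreated WT sdCAMs of mice 9, 14 and 15, 4.14, 5.07 and 0.187% in those of mice 8, 11 and 12 after BLZ945 and LPS, and 7.19, 1.45 and 7.24% in tdT+ sdCAMs of LPS mice 1, 5 and 7. Mouse 12 had 16.9 CPM of Tlr9 at its low Lars2 share, level with the 15.9 CPM of tdT+ mouse 5. Reporter MG of mouse 175 had 17.1 CPM of Tlr9 at 0.0347% Lars2, and tdT- sdCAMs of LPS mouse 7 had 6.22 CPM at 1.01%. Lars2 took 0.0581 to 0.191% in WT sdCAMs after CTL and LPS, 0.0434 to 1.01% in tdT- sdCAMs after LPS and at most 0.0501% in all MG and Ccr2-/- libraries and in reporter sdCAMs after PBS. The Lars2 share and the groups compared for Tlr9 in sdCAMs cannot be told apart.

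**Figure D4:**
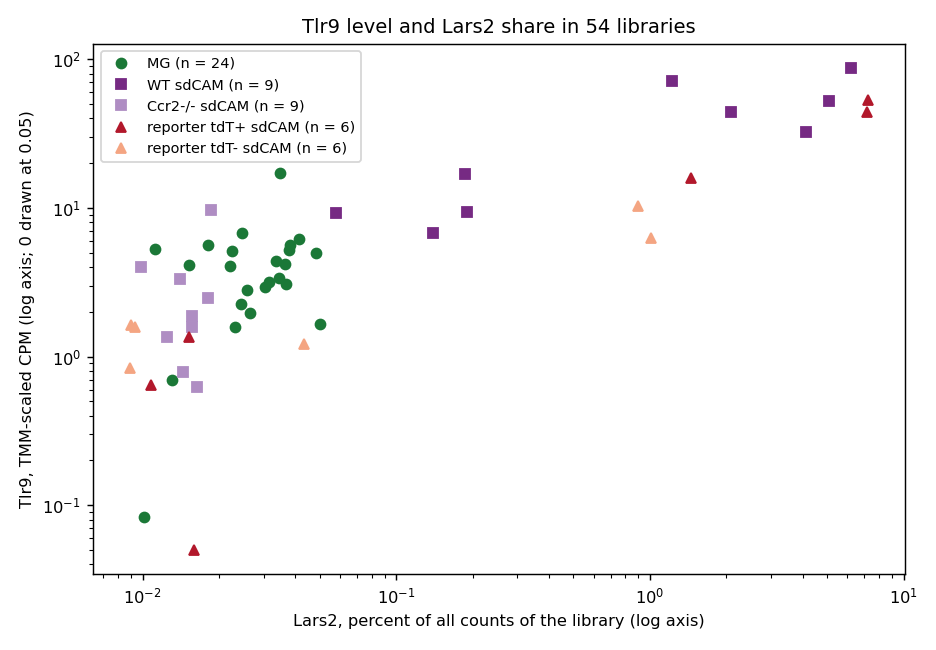
Tlr9 level (y axis, TMM-scaled CPM, log axis, 0 drawn at 0.05) against the percent of all counts on Lars2 (x axis, log axis) in 54 libraries. The libraries with over 1% Lars2 are sdCAMs of WT or reporter mice, and those of WT and tdT+ sdCAMs lie at 15.9 to 87.1 CPM of Tlr9. That of tdT- sdCAMs of LPS mouse 7 (1.01%) lies at 6.22 CPM, and reporter MG of mouse 175 lie at 17.1 CPM with 0.0347% Lars2.

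Earlier depletion and repopulation left no call among the 10 genes when BLZ945 and CTL mice were compared after LPS. In each of the 4 populations 0 of the 10 passed, beside 0.0763% of all genes in WT MG, 0.0173% in Ccr2-/- MG, 0% in WT sdCAMs and 0% in Ccr2-/- sdCAMs. At an unadjusted p under 0.05 edgeR gave 1, 1, 2 and 2 of the 10 genes in that order. Among all genes tested it gave 776 of 11789, 769 of 11558, 758 of 10504 and 998 of 11941. DESeq2 called 0 of the 10 in each. For Tlr4 in WT MG, CTL mice had 103, 153 and 109 CPM and BLZ945 mice 174, 127 and 137 CPM, a log2 difference of 0.28 (95% interval -0.15 to 0.70), and in Ccr2-/- MG the interval was -0.73 to 0.37. In Ccr2-/- sdCAMs Tlr4 had 174, 136 and 162 CPM after CTL and 138, 118 and 117 CPM after BLZ945, overlapping (95% interval -0.69 to -0.02). In WT sdCAMs it had 38.5, 54.8 and 33.8 CPM after CTL and 113, 91.95 and 32.4 CPM after BLZ945, with the unmarked mice 8 and 11 above and the marked mouse 12 level with CTL (95% interval -0.38 to 2.04), beside the higher microglial markers after BLZ945 given above.

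Cd14 and Tlr2 overlapped between CTL and BLZ945 in MG of both genotypes and in Ccr2-/- sdCAMs. Cd14 had 964, 1048 and 844 CPM in WT MG after BLZ945 and LPS (95% interval of the log2 difference from CTL -0.80 to 0.49) and 3994, 2516 and 1672 CPM in Ccr2-/- MG (-0.06 to 1.01). Tlr2 had 1662, 1499 and 1190.1 CPM in WT MG (-0.73 to 0.92) and 779, 1043 and 937 CPM in Ccr2-/- sdCAMs (-0.51 to 0.17). Over the 10 genes the estimates ran from -0.21 to 1.01 in WT MG, -0.43 to 0.47 in Ccr2-/- MG, -1.14 to 1.11 in Ccr2-/- sdCAMs and -1.63 to 1.91 in WT sdCAMs. In WT sdCAMs, Cd14, Tlr1, Tlr9 and Tlr13 did not overlap between CTL and BLZ945, but 0 of all 10504 genes tested passed. The share of all genes without overlap was not counted, so no effect is read from these 4. Tlr1 had 107, 65.3 and 116 CPM after CTL and 202, 149 and 130.3 CPM after BLZ945 (log2 fold change 0.65, SE 0.405, adjusted p = 0.722). Without the BLZ945 library of mouse 12, the marked one, Ly96 (-4.79, adjusted p = 0.0109) and Tlr9 (2.22, adjusted p = 0.0299) passed in WT sdCAMs, which then set 2 unmarked against 3 marked libraries. Tlr9 in WT MG and Tlr3 in Ccr2-/- sdCAMs did not overlap either, and no effect is read from them. Tlr3 had 45.7, 53.8 and 72.5 CPM after CTL and 35.7, 29.7 and 13.6 CPM after BLZ945 (log2 fold change -1.14, SE 0.325, adjusted p = 0.376). Without a low-count filter it passed (adjusted p = 0.0173).

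No difference between the genotypes in these responses passed. Between Ccr2-/- and WT mice, 0 of the 10 genes passed for the LPS response in MG (beside 0% of all genes) and in sdCAMs (0%), and 0 for the BLZ945 effect in MG (0%) and in sdCAMs (0%). The counts at an unadjusted p under 0.05 in edgeR were 1, 3, 2 and 2 of the 10 in that order. Among all genes tested they were 503 of 12423, 1792 of 13258, 494 of 12423 and 1332 of 13258. DESeq2 called 0 of the 10 in each. For Tlr4 the 95% interval of the genotype difference in LPS response was -0.55 to 0.90 in MG and -0.41 to 2.05 in sdCAMs on the log2 scale. For Ly96 in sdCAMs, whose WT and Ccr2-/- estimates lay on opposite sides of 0, the difference was -4.00 (SE 1.27, adjusted p = 0.221). For Tlr3 the genotype difference in the BLZ945 effect in sdCAMs was -2.40 (SE 0.632, adjusted p = 0.395). Without the marked WT library of mouse 12, Tlr3 (-2.95, adjusted p = 0.00164), Tlr4 (-1.72, adjusted p = 0.0406) and Ly96 (4.52, adjusted p = 0.000375) passed for that effect. The share of all genes that passed without this library is not given.

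In repopulated reporter mice, tdT+ and tdT- sdCAMs showed no detectable difference in the 10 genes after PBS. Of the 10, 0 passed, beside 0.0236% of all genes, and DESeq2 called 0. At an unadjusted p under 0.05 in edgeR there were 0, beside 566 of all 12708 genes tested. On the log2 scale the estimates were -0.14 for Tlr4 (95% interval -0.74 to 0.46) and 0.23 for Cd14 (-0.78 to 1.23). They were -0.14 for Ly96 (-1.53 to 1.25) and 0.14 for Tlr2 (-0.90 to 1.18).

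After LPS, 4 of the 10 genes passed between tdT+ and tdT- sdCAMs as deposited, 3 higher and 1 lower in tdT+ cells, beside 10.8% of all genes, and none of the 4 passed with the 2 libraries exchanged. Tlr4 had 89.5, 122 and 132 CPM in tdT+ and 40.5, 46.4 and 33.8 CPM in tdT- sdCAMs of mice 1, 5 and 7, without overlap (2.84-fold higher in tdT+, log2 fold change 1.51, SE 0.293, adjusted p = 0.00333). With the exchange the difference was log2 fold change 0.25, adjusted p = 0.995, with both libraries left out log2 fold change 1.40, adjusted p = 0.0351, and with the exchange and without tdT+ mouse 5 log2 fold change -0.14, adjusted p = 0.995. Ly96 had 21.7, 23.2 and 8.63 CPM in tdT+ and 56.3, 492 and 56.5 CPM in tdT- cells, without overlap (11.3-fold lower in tdT+, log2 fold change -3.50, SE 0.732, adjusted p = 0.00574). Without tdT- mouse 5 it was 3.11-fold lower (log2 fold change -1.64, adjusted p = 0.0227), with the exchange the log2 fold change was -2.47 (adjusted p = 0.763), and with the exchange and the mouse as a block -0.83 (adjusted p = 0.981). Tlr1 had 143, 119 and 174 CPM in tdT+ and 52.7, 49.1 and 78.7 CPM in tdT- cells (log2 fold change 1.27, SE 0.316, adjusted p = 0.0164), a difference that was log2 fold change 0.05, adjusted p = 1 with the exchange and lost its call without tdT+ mouse 7 (adjusted p = 0.068). Tlr2 (log2 fold change 1.68, SE 0.502, adjusted p = 0.0426) lost its call with the mouse as a block (1.19, adjusted p = 0.125), with the exchange (1.42, adjusted p = 0.763) and without tdT+ mouse 5 (0.49, adjusted p = 0.312) or any 1 tdT- library (adjusted p 0.0782 to 0.312 over these losses). When only the 6 libraries compared were fitted, Ly96 alone passed. With the exchange, the index and the sex-linked transcripts above match within mouse 1 and within mouse 7. As deposited they do not. Beyond these, which library belongs to which population was not tested.

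Tlr4 was also the 1 gene of the 10 for which the 2 reporter sdCAM populations responded differently to LPS as deposited, beside 5.17% of all genes (interaction 1.65, SE 0.405, adjusted p = 0.0265). It was lost with the exchange (log2 fold change 0.38, adjusted p = 1), with both libraries left out (log2 fold change 1.54, adjusted p = 0.0894), and without tdT+ mice 7, 174, 175 or 177 or tdT- mice 175 or 177 (adjusted p 0.0568 to 0.0985). With the mouse as a block, Ly96 passed too (-2.71, adjusted p = 0.0342).

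**Figure D5:**
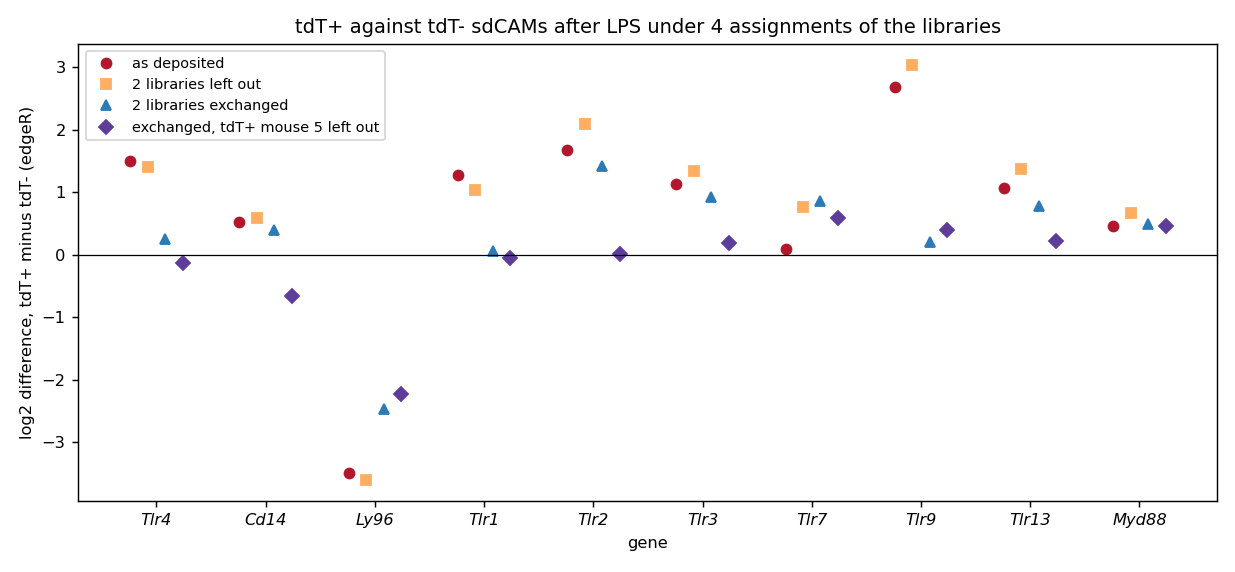
Log2 difference between tdT+ and tdT- sdCAMs after LPS for each gene (y axis, edgeR) with the libraries as deposited, with 2 libraries left out, with them exchanged, and exchanged without tdT+ mouse 5. The estimates for Tlr4 and Tlr1 lie at 1.51 and 1.27 as deposited and at 0.25 and 0.05 with the exchange.

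The wider pathway was followed with 31 further genes of Toll-like receptor signalling. Of those tested, 6 rose and 6 fell after LPS in WT MG (28 tested), 6 and 7 in Ccr2-/- MG (28), 2 and 1 in WT sdCAMs (27), 5 and 7 in Ccr2-/- sdCAMs (29), 1 and 1 in reporter MG (28), 4 and 3 in tdT+ sdCAMs (31) and 5 and 5 in tdT- sdCAMs (31). The shares passed, in that order, were 42.9, 46.4, 11.1, 41.4, 7.14, 22.6 and 32.3%, beside 30.9, 34.9, 6.32, 28.8, 1.08, 13.6 and 27.1% of all genes tested. Ikbke, a kinase of the interferon branch, rose in all 7, from 0 to 1.88 CPM to 363 to 570.1 CPM in Ccr2-/- sdCAMs and from 0.0898 to 0.204 CPM to 8.80003 to 142 CPM in WT MG. Irak3, a brake on Myd88 signalling, rose in 6 of 7 populations, by 4.21 on the log2 scale in Ccr2-/- sdCAMs and 2.12 in WT MG. The responses of Ccr2-/- sdCAMs and MG differed for Irak3 (interaction 2.06, adjusted p = 0.00186). Casp4, the intracellular LPS sensor, rose in 5 of 7, by 2.7 in Ccr2-/- sdCAMs and 1.03 in WT MG.

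Other receptors and chaperones fell. Cd180, a Tlr4 relative that restrains LPS signalling, fell in MG and sdCAMs of WT and Ccr2-/- mice, from 101 to 125 CPM to 13.6 to 25.95 CPM in WT MG (log2 fold change -2.51) and from 101 to 177 CPM to 9.06 to 19.96 CPM in WT sdCAMs (-3.09). Its partner Ly86 fell in WT MG (-0.69), Ccr2-/- MG (-0.62) and Ccr2-/- sdCAMs (-1.68). Unc93b1, which carries the endosomal receptors, fell in 5 of 7 populations, from 1257 to 1500.4 CPM to 669 to 733 CPM in WT MG (-0.91) and from 1700.2 to 2004 CPM to 439 to 462 CPM in tdT- sdCAMs (-2.03).

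Tlr8, another endosomal RNA sensor, marked sdCAMs. It had 47.9 to 106 CPM in untreated WT sdCAMs against 0 to 0.449 CPM in MG, and 153 to 164 against 0 to 1.89 CPM in Ccr2-/- mice, and was higher in sdCAMs in all 4 comparisons of the cell types without LPS. Tlr12 was lower in sdCAMs of Ccr2-/- (-3.66) and reporter mice (-4.31 for tdT+ and -3.86 for tdT- cells), and Tlr5, the flagellin receptor, was higher in Ccr2-/- sdCAMs (1.6). Of the 31 genes, 5 were higher and 3 lower in WT sdCAMs than in WT MG (30 tested, 26.7% passed, beside 17.4% of all genes), and 4 were higher and 6 lower in Ccr2-/- sdCAMs than in Ccr2-/- MG (31 tested, 32.3% beside 22.4%). None passed between BLZ945 and CTL in any of the 4 populations.

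Across the 18 group means, the genes most like each of the 10 were found among 8627 genes by Pearson's r of log2 levels, as a description of groups that share libraries, cell type and treatment. They were Vwa5a (r = 0.949) and Sgk3 (0.944) for Tlr4, Eif2s1 (0.942) and Nubp2 (0.94) for Cd14, Snapc5 (0.946) and Smim29 (0.945) for Ly96, and D17H6S56E-5 (0.972) and Cct6a (0.949) for Tlr2. For Tlr3 they were Bicd2 (0.958) and Ets1 (0.944), for Tlr7 Megf9 (0.935) and Vopp1 (0.911), for Tlr13 Emc1 (0.951) and Alg2 (0.94), for Tlr1 Dram2 (0.909) and Parp9 (0.893), and for Myd88 Prelid3b (0.972) and Surf4 (0.955). For Tlr9 they were Pum2 (0.961) and Mir6236 (0.942), the latter another row that collects ribosomal RNA reads. Among the 10 genes themselves, Cd14 and Myd88 (0.876), Cd14 and Tlr2 (0.858) and Tlr2 and Tlr7 (0.829) were most alike, and Ly96 and Tlr3 least (-0.707).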

How the data were processed

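Bulk RNA-seq libraries (SMARTer v4 cDNA from picogram amounts of RNA, Nextera XT, single reads) of sorted MG and sdCAMs were analysed, 3 mice per group. Per the labels, the authors aligned reads with STAR 2.7.11a and counted them per gene with featureCounts 2.0.8. The deposited values were raw counts per gene symbol in 3 tables, with no normalization and no molecular identifiers, so amplification duplicates remain in them. The notes name 2 mouse builds, the strand setting is not given in the sources used here, and promoter coordinates come from RefSeq (GRCm38.p6). Totals of 1705930 to 11330781 counts set the counting precision, and intervals cover the spread between mice.

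Counts were fitted with edgeR 4.0.16 in R 4.3.3 (filterByExpr, TMM, quasi-likelihood test, two-sided, Benjamini-Hochberg adjustment over all genes). WT and Ccr2-/- libraries were fitted per genotype and cell type, 9 to a fit, with 18 to a fit for comparisons of cell types or genotypes. Reporter sdCAMs were fitted 12 together, reporter MG 6 together, and all 18 to compare their cell types. Differences between responses were interaction terms. Levels per kilobase used union exon lengths from GENCODE M21. Titles of Ccr2-/- libraries after LPS name the other cell type than their characteristics and library names, and the latter were used. Replicates are separate mice. MG and sdCAMs of one mouse share its number, and same-mouse deviations correlated by -0.0468 to 0.211, so the fit with the mouse as a block is an alternative whose value is given where it changes a call.

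The 10 genes, the lists and the alternatives were chosen with earlier results of these data known. Named were the 10 genes, pathway genes that passed, and for each of the 10 the 2 genes of highest Pearson's r of log2(CPM + 1) over the 18 groups (mean of 10 CPM or more, no predicted genes). Lars2 was chosen after its values were seen. Alternatives were DESeq2 1.42.0, its size factors, the low-count rule of the study (a sum of counts of at least 0.5 per library), no low-count filter, a log2 fold limit of 1, only the libraries compared, the IEG mark, the exchange or omission of 2 reporter columns, and each library left out. Omission of the 2 reporter MG libraries that stand apart, and of tdT+ mouse 5 together with the exchange, were added after the data were seen. Scripts were tested on simulated data. No pair among the replicates was identical.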

Additional observations from a re-analysis of the deposited data

Results flagged for a closer look

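Responses to LPS differed between 2 populations, by a test of the difference itself, for 3 results. The response of Tlr4 differed between tdT+ and tdT- sdCAMs as deposited (log2 difference 1.65, adjusted p = 0.0265, edgeR), but not with the 2 reporter columns exchanged. The response of Tlr2 was smaller in Ccr2-/- sdCAMs than in Ccr2-/- MG (-1.63, adjusted p = 0.00134), and that of Myd88 was larger (0.93, adjusted p = 0.0068). Both of these calls held without any 1 of the 12 libraries. With 3 libraries in each group, no test for single libraries that stand apart was made.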

How the results depend on the processing

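Of 45 calls on the 10 genes, the 321 values under the alternative settings kept direction and call in 272, kept the direction but lost the call in 46, and changed direction in 3. Fits that left out 1 library at a time gave 288 values, of which 225 kept the call, 63 lost it and 0 changed direction. The 3 reversals, all with the 2 reporter columns exchanged and tdT+ mouse 5 left out, were Tlr4 (-0.14) and Tlr1 (-0.0558) between tdT+ and tdT- sdCAMs after LPS and Tlr4 in the difference of their LPS responses (-0.00714). Shallow WT and reporter sdCAM libraries and the wide spread between mice limit what could be detected there, and no difference was equated with absence. The cause of a changed count was not tested, except where fewer libraries or a stricter rule make it.

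Counts here and in the paragraphs below are given without the share of all genes called under the same setting. They therefore do not tell a change particular to the 10 genes from one shared by genes at large. Numbers of the 10 genes that passed moved by over 1.5 times as follows. With DESeq2 they were 3 in place of 1 for LPS in WT sdCAMs, 7 in place of 4 for LPS in Ccr2-/- sdCAMs, 3 in place of 0 for LPS in reporter MG, 1 in place of 0 for tdT- sdCAMs against MG, 2 in place of 1 for the difference of LPS responses between tdT+ and tdT- sdCAMs, and 1 in place of 0 for that between WT cell types. Smaller moves with DESeq2 were 4 in place of 3 for WT sdCAMs against MG, for LPS in tdT+ sdCAMs and for the genotypes in untreated sdCAMs, and 6 in place of 4 for Ccr2-/- sdCAMs against MG and for tdT+ against tdT- sdCAMs after LPS. Without a low-count filter they were 3, 7, 1, 1, 3 and 1 for the same comparisons, 1 in place of 0 for BLZ945 in Ccr2-/- sdCAMs and 1 in place of 0 for the genotype difference in the LPS response of sdCAMs. With only the libraries compared they were 3 for WT sdCAMs, 7 for Ccr2-/- sdCAMs, 1 in place of 4 for tdT+ against tdT- sdCAMs after LPS and 2 in place of 1 for the genotypes in untreated MG. With DESeq2 size factors and with the low-count rule of the study, 2 genes had LPS responses that differed between tdT+ and tdT- sdCAMs, and under the low-count rule 0 differed between genotypes in untreated MG. The log2 fold limit of 1 left 2 of 4 for Ccr2-/- sdCAMs against MG, 5 of 8 for LPS in Ccr2-/- MG, 1 of 2 for the difference of responses between Ccr2-/- cell types and 0 of 1 for the genotypes in MG.

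With the IEG mark as a covariate, or with marked libraries only, 3 genes passed for LPS in WT sdCAMs, and with the covariate 2 differed in response between WT cell types. Without the 2 reporter MG libraries that stood apart, 3 genes passed for LPS in reporter MG and 1 for each sdCAM population against MG. With the 2 reporter columns exchanged, 1 gene passed for LPS in tdT+ sdCAMs in place of 3, 1 in tdT- sdCAMs in place of 2, 0 between tdT+ and tdT- sdCAMs after LPS in place of 4, and 0 for the difference of their responses. With both columns left out the last 2 counts were 2 and 0. With the exchange and without tdT+ mouse 5 the counts were 1 for LPS in tdT- sdCAMs and 0 for both comparisons of tdT+ with tdT-, as they were with the exchange and the mouse as a block.

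With the mouse as a replicate block, 2 genes in place of 1 differed in LPS response between tdT+ and tdT- sdCAMs and 1 in place of 0 between WT cell types. Beyond the Tlr2, Tlr7 and Ly96 values given above, the block changed no other call.

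Leaving out 1 library at a time gave 0 to 1 genes passed for LPS in WT sdCAMs, 4 to 5 in Ccr2-/- sdCAMs, 0 to 2 in reporter MG, 1 to 2 in tdT- sdCAMs, 2 to 3 in tdT+ sdCAMs, 6 to 9 in WT MG and 7 to 8 in Ccr2-/- MG. It gave 0 to 1 for tdT+ and 0 to 1 for tdT- sdCAMs against MG, 0 to 2 for BLZ945 in WT sdCAMs, 0 to 2 for the difference of responses between tdT+ and tdT- sdCAMs, 0 to 1 for that between WT cell types, 0 to 0 for the genotypes in untreated MG, 1 to 5 for the genotypes in untreated sdCAMs and 0 to 3 for the genotype difference in the BLZ945 effect in sdCAMs.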
